A study of Mus musculus with 10 samples.

Results

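A set of 76 genes that were strongly lower in the cap stage molar than in the bud stage molar, and that are in none of the study's gene tables, was described array by array. The set was taken from a table of 27528 genes by 2 conditions. The mean over the E13.5 arrays had to be above the mean over the E14.5 arrays by at least 1 log2 unit, and the lowest E13.5 array had to be above the highest E14.5 array. These conditions were met by 85 genes, or 0.309% of the table. Of these, 8 are in the study's category and pathway tables and 1 more ID was set aside by the definition of the set, which left 76. Because the difference between stages chose the genes, that difference is given here as a description and without a test.

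The samples were first molar tooth germs of NMRI mice, an outbred laboratory stock, with no mutation or treatment. Germs were dissected on embryonic days E13.5 (bud stage) or E14.5 (cap stage), and between 12 and 18 of them were pooled for each sample. There were 5 arrays at each stage, carrying replicate numbers 1, 2, 4, 5 and 6. Signals are from Affymetrix Mouse Exon 1.0 arrays, which probe a gene in many of its exons, and are read as log2 values, so that a fall of 1 is a 2-fold lower signal.

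At the bud stage the dental epithelium has grown into a condensed mesenchyme of neural crest origin, and the mesenchyme holds the capacity to direct tooth formation. At the cap stage the epithelium folds around the mesenchymal papilla under the influence of the enamel knot, an epithelial signalling centre, while the outer mesenchyme forms the dental follicle. A germ thus holds both tissues, in proportions that were not measured here. In such whole-germ samples, fewer cells of a type and less RNA per cell cannot be told apart.

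Genes are identified by Ensembl ID. Symbols were paired with these IDs only for the genes of the study's own tables, and the annotation used here pairs no Ensembl ID with a symbol. A symbol was therefore available for 0 of the 76 genes, and their functions and sequences are not stated here. The IDs of the 2 genes with the largest falls are given, the other 74 genes are described by counts and ranges, and the 8 study-table genes with the same behaviour are given by name for comparison.

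Array medians over the whole table were between 5.06 and 5.22, and the spread of the signals within an array, as an SD, between 1.51 and 1.74. In limma at an adjusted p under 0.05, 961 genes were lower at E14.5 and 1201 higher. The lower calls made up 3.49% of the table. All 76 genes of the set were among them, which carries no information since the same difference chose them.

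The falls in the set were mostly a little over the minimum. They ran from 1.00 to 2.24 log2 units with a median of 1.18, or from 2.001-fold to 4.73-fold with a median of 2.26-fold. The middle of the distribution was narrow, with quartiles of 1.05 and 1.35. A fall of at least 1.1 was seen in 48 genes, of at least 1.5 in 7 and of at least 2 in 1. The median difference of all genes was 0.0145. The distance from the lowest E13.5 array to the highest E14.5 array, which has to be above 0 in this set, ran from 0.0614 to 1.49 with a median of 0.72. It was at least 0.5 in 59 genes and at least 1 in 8. Over the whole table, 1105 genes (4.01%) had all E13.5 arrays above all E14.5 arrays, whatever the size of the fall.

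The bound at 1 did not fall in a gap of the data. The 3 genes just inside it fell by 1.001, 1.002 and 1.004, and the 3 genes just outside it that also did not overlap fell by 0.999, 0.99 and 0.986. The first of these outer genes went from 7.68 to 6.68, with 0.61 between its nearest arrays of different stages. Another 3 genes fell by 1.07, 1.01 and 1.004 but their stages overlapped. With a bound of 0.9 the set would hold 92 genes, and with 1.1 it would hold 48.

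**Figure D1:**
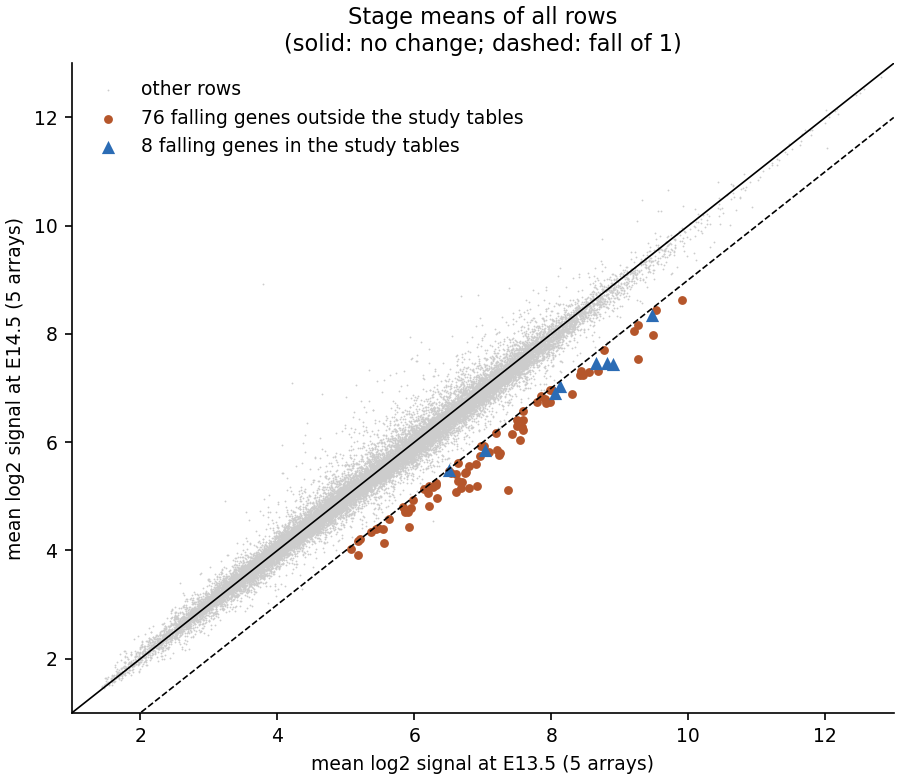
Each point is a gene, placed by its mean log2 signal over 5 arrays at E13.5 (horizontal axis) and at E14.5 (vertical axis). The 76 genes of the set (orange circles) and the 8 falling genes of the study tables (blue triangles) lie on or below the dashed line of a fall of 1. The set spans E13.5 means from 5.07 to 9.91. Grey points are the other genes of the table, and the solid line marks no change.

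The signals of the set are among the values that chose it, and a gene with a very low signal at E13.5 could not have entered. E13.5 means ran from 5.07 to 9.91 with a median of 6.91, and E14.5 means from 3.91 to 8.63 with a median of 5.57. The medians of all genes were 5.13 at both stages. Of the set, 75 genes were above that median at E13.5 and 54 at E14.5. Detection calls were not used, so how near the lower signals are to background is not known. The median fall was 1.21 in the 38 brighter and 1.15 in the 38 dimmer genes.

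The largest fall was that of ENSMUSG00000033737. On the E13.5 arrays it read 7.36, 7.02, 7.18, 7.57 and 7.67 in replicates 1, 2, 4, 5 and 6. On the E14.5 arrays it read 5.53, 5.12, 4.94, 5.15 and 4.86 in the same order. Each E13.5 array was at least 1.49 above each E14.5 array, the widest separation in the set. The mean went from 7.36 ± 0.27 to 5.12 ± 0.26 (SD, n = 5), a fall of 2.24 or 4.73-fold.

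The next largest was that of ENSMUSG00000033308. It read 7.29, 6.74, 6.68, 6.98 and 6.88 on E13.5 replicates 1, 2, 4, 5 and 6, and 5.45, 5.05, 5.36, 5.13 and 4.98 on the E14.5 replicates. Replicate 1 was the highest array at both stages, and the stages were 1.23 apart. The mean went from 6.91 ± 0.24 to 5.19 ± 0.20 (SD, n = 5), a fall of 1.72 or 3.29-fold. The E14.5 means of both of these genes were near the median of all genes at that stage, 5.13.

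**Figure D2:**
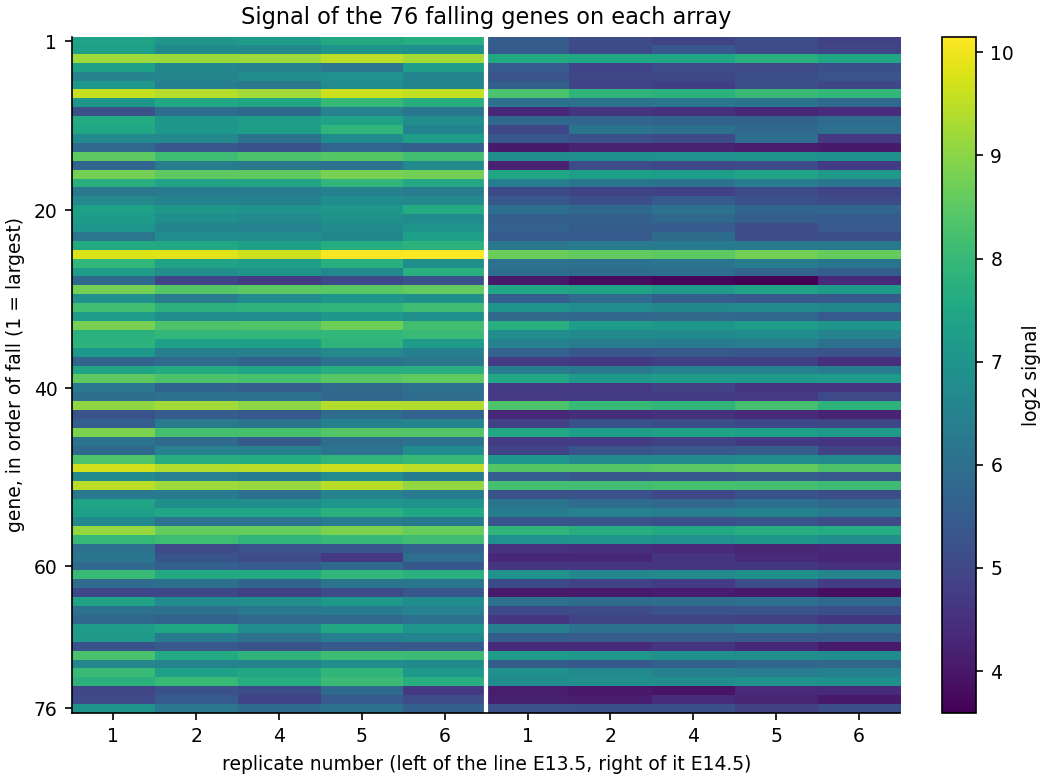
Log2 signal (colour) of the 76 genes in rows, in order of their fall, on the 10 arrays in columns, with the 5 E13.5 arrays left of the white line and the 5 E14.5 arrays right of it. Brighter and dimmer genes of the set occur among both larger and smaller falls, though not at every size of fall. E13.5 means in the set reach from 5.07 to 9.91.

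The fall was next read on arrays left out of a repeated choice, though most genes so chosen were also in the set of 76. The same 2 conditions were applied to 8 arrays, leaving out 1 replicate number at both stages, and the genes so chosen were read on the 2 arrays left out. With replicate 1 left out, 67 genes were chosen, and 66 of them were lower on the E14.5 array left out, against 61% of all genes. With replicate 2 left out, 79 of 87 were lower, against 51.6% of all genes. The counts were 81 of 81 for replicate 4 (49.1% of all genes), 70 of 70 for replicate 5 (54.7%) and 70 of 70 for replicate 6 (46.7%).

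The genes chosen on 8 arrays were lower on the E14.5 array left out in 366 of 375 readings, a gene being read once for each number that chose it. These readings are not independent, since the 5 choices share most of their genes. In each choice, 65 to 74 of the genes were also in the set of 76. The conditions of that set require these to be lower on any pair left out, so neither the counts nor the medians that follow are separate support for it. Only the chosen genes outside the set could go either way. They numbered 2, 16, 7, 2 and 4 for replicates 1, 2, 4, 5 and 6, and 1, 8, 0, 0 and 0 of them were not lower. The median fall on the arrays left out was 1.26 for replicate 1, 1.03 for replicate 2, 0.98 for replicate 4, 1.23 for replicate 5 and 1.29 for replicate 6, against medians of 1.14 to 1.21 on the arrays that chose the genes. The medians of all genes on the same arrays were between -0.021 and 0.0646. Replicate 2 stood out, with 8 of the 9 readings that went the other way, the lowest difference of E13.5 minus E14.5 being -1.56, and 16 of its 87 genes outside the set of 76. Replicates 2 and 4 gave the smaller medians.

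**Figure D3:**
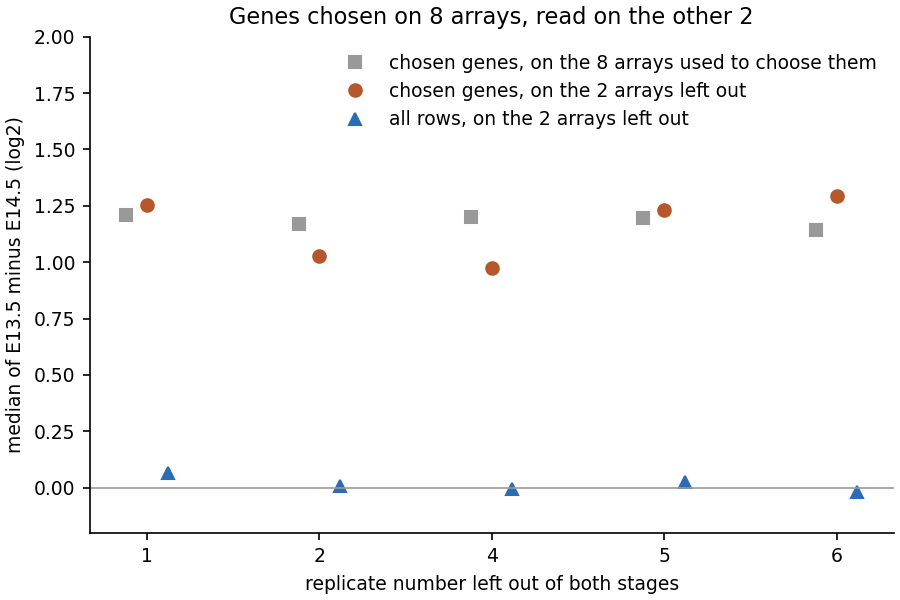
Median of the E13.5 minus E14.5 difference in log2 units (vertical axis) for genes chosen without the replicate number on the horizontal axis, on the 8 arrays that chose them (grey squares) and on the 2 arrays left out (orange circles), with all genes on the arrays left out (blue triangles). The orange circles lie between 0.98 and 1.29, and the blue triangles between -0.021 and 0.0646. Most of the chosen genes are also in the set of 76, whose conditions fix their direction on the arrays left out.

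Within each stage the arrays did not read the set alike. The median signal of the 76 genes on the E13.5 arrays was 7.20, 6.77, 6.78, 6.97 and 6.88 for replicates 1, 2, 4, 5 and 6, a mean of 6.92 ± 0.18 (SD, n = 5). On the E14.5 arrays it was 5.57, 5.57, 5.66, 5.63 and 5.45, a mean of 5.58 ± 0.08 (SD, n = 5). The deviation of each gene from its own mean over the stage compares the arrays gene by gene. The condition that stages do not overlap is set on single arrays and so limits these deviations, which are given as a description. Their median over the set was 0.11 on E13.5 replicate 1, 0.13 on replicate 5 and 0.06 on replicate 6, but -0.11 on replicate 2 and -0.17 on replicate 4. The medians of all genes on these arrays were between -0.05 and 0.03, and were above 0 on replicates 2 and 4.

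The low position of E13.5 replicates 2 and 4 was shared by most of the set. In 75 of the 76 genes the highest E13.5 array was replicate 1 (32 genes), 5 (25 genes) or 6 (18 genes), as it was in 51.9% of all genes. It was replicate 2 in 1 gene and replicate 4 in 0 genes, while these were the highest arrays in 23.99% and 24.1% of all genes. Replicate 4 was the lowest E13.5 array in 30 of the 76 genes, against 12.3% of all genes. Replicate 2 was the lowest in 19 of the 76, against 20.8% of all genes, and so stood less apart by this count. At E14.5 the lowest array was replicate 6 in 36 genes, against 15.5% of all genes, and the highest was replicate 1 in 32 genes, against 19.3%.

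Other measures also differed between these arrays, and their part in the deviations of the set was not tested. Replicates 2 and 4 had the narrowest spread of gene signals among the E13.5 arrays, with SDs of 1.58 and 1.60 against 1.66 to 1.74. After quantile normalization, which gives all arrays the same distribution of signals, the median deviation of the set was -0.05 on replicate 2 and -0.16 on replicate 4, 0.12 on replicates 1 and 5, and -0.0042 on replicate 6, which no longer read high. On E13.5 replicates 2 and 4, where the set read low, the 10 dental epithelium genes had median deviations of 0.12 and 0.10, and the 15 dental mesenchyme genes had -0.0067 and -0.08. On replicate 5, where the set read high, the values were 0.06 for the epithelium and 0.08 for the mesenchyme genes. On replicate 1, where the set also read high, the epithelium genes had a median deviation of -0.35 and the mesenchyme genes one of 0.00083. On replicate 6 the set (0.06), the epithelium genes (0.20) and the mesenchyme genes (0.02) were all above their stage means.

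**Figure D4:**
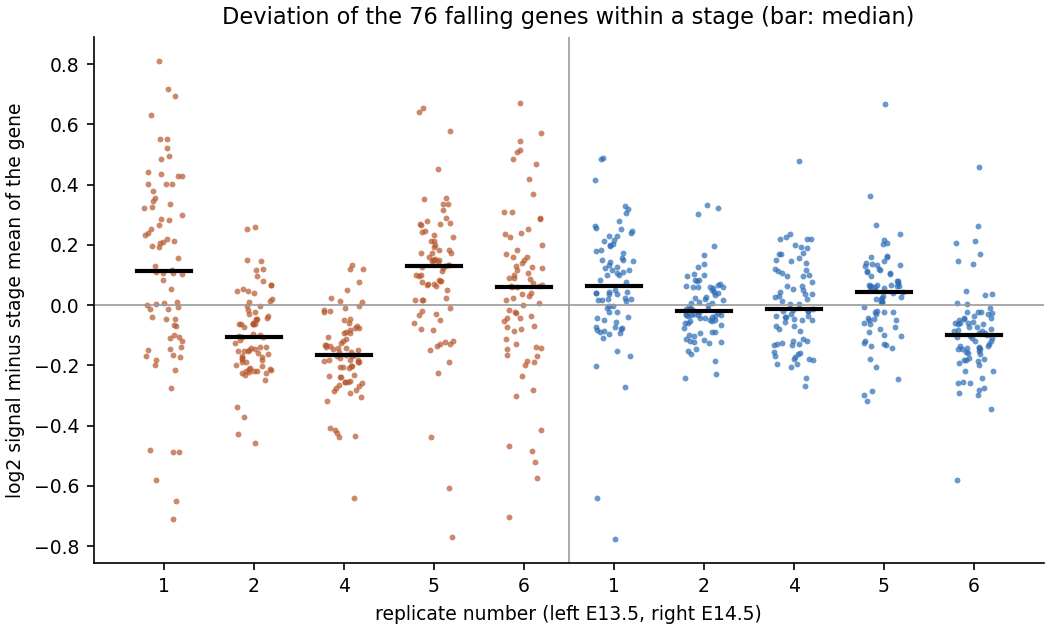
Deviation of each of the 76 genes from its own mean over the 5 arrays of the stage (vertical axis, log2 units) on each array (horizontal axis, E13.5 in orange and E14.5 in blue), with the median as a black bar. The medians on E13.5 replicates 2 and 4 are at -0.11 and -0.17, and that on E14.5 replicate 6 is at -0.10.

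The spread between arrays of a stage, which the condition on overlap also limits, was wider at the bud stage. The SD of the 76 genes had a median of 0.24 at the bud stage and 0.14 at the cap stage, whereas over all genes the medians were 0.15 and 0.14. The SD was larger at E13.5 in 62 of the 76 genes, or 81.6%, compared to 53.3% of all genes and 58.4% of the 17114 genes whose mean over the 10 arrays was within the range of the set. It was at least double in 26 genes of the set, or 34.2%, and in 10.9% of all genes. Single genes ranged from 0.09 to 0.61 at E13.5 and from 0.04 to 0.46 at E14.5. These counts are not of independent genes, since all genes share the same arrays and deviated in part together. The median signal of the set had an SD between arrays of 0.18 at E13.5 and 0.08 at E14.5.

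The mirrored conditions, a rise of at least 1 without overlap, gave 84 genes, in which the SD was larger at E13.5 in 47, or 56%, with medians of 0.18 at both stages. The difference between the falling and the rising genes was not tested. The count of 62 was 52 when E13.5 replicate 1 was left out, where 47.4% of all genes were wider at E13.5, and at least 58 when any other array was left out. For each of the 76 genes and each stage, 152 groups of 5 values in all, it was asked whether a single value lay far from the rest. This was so in 6 groups, where about 1 in 20, or 7.6, are met by chance, and all 6 were at E14.5.

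**Figure D5:**
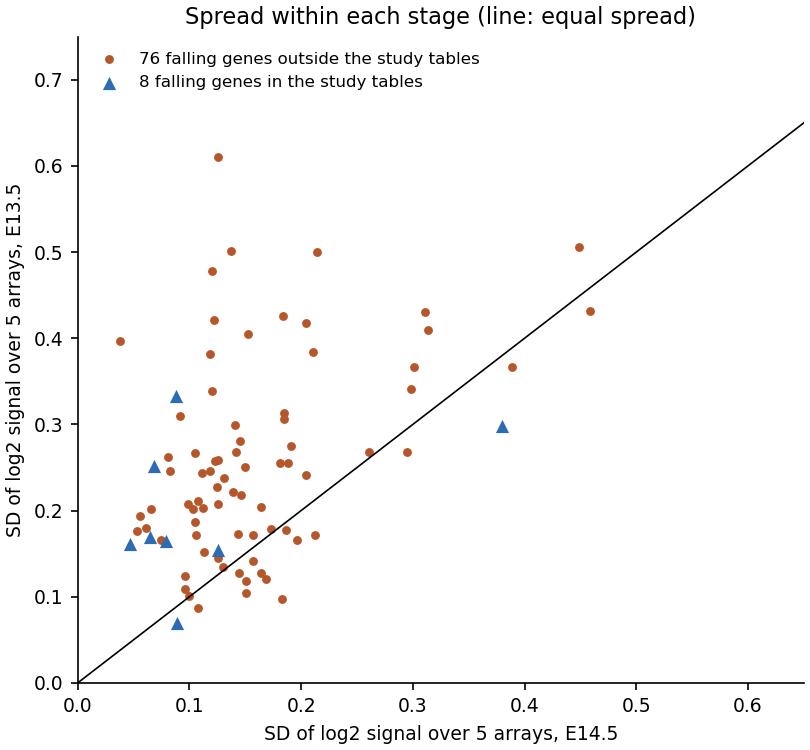
SD of the log2 signal over the 5 arrays of E14.5 (horizontal axis) and E13.5 (vertical axis) for the 76 genes (orange circles) and the 8 falling genes of the study tables (blue triangles). Of the 76 genes, 62 lie above the line of equal spread, and their medians are 0.24 at E13.5 and 0.14 at E14.5.

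How far the genes varied together within a stage was described with the correlation of each gene's deviations with the median deviation of the other 75 genes, over the 10 arrays. All genes on an array share its hybridization and its pool of germs, and genes are not independent replicates. The coefficient had a median of 0.57 and ran from -0.76 to 0.92. It was at least 0.5 in 43 genes, or 56.6%, and below 0 in 7. Among all genes 10.4% had a coefficient of at least 0.5 with the median of the set, and the median was -0.15. After quantile normalization 43 genes of the set and 14.2% of all genes were at or above 0.5.

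Among the 395 study-table genes on the arrays, the one whose deviations were most like the median of the set was *Pdgfra*, a receptor for platelet-derived growth factors, with r = 0.82 over the 10 arrays. It was followed by *Dync2h1* (r = 0.81), the motor of retrograde transport in cilia, *Fbxw7* (r = 0.81), a subunit of a ubiquitin ligase, *Ift57* (r = 0.81), a component of ciliary transport particles, and *Nkd2* (r = 0.78), an inhibitor of Wnt signalling. Only *Pdgfra* of these 5 met the conditions of the set. *Dync2h1* fell by 0.44, from 6.49 ± 0.20 to 6.06 ± 0.10 (SD, n = 5), and *Nkd2* by 0.32, while *Fbxw7* and *Ift57* were at a lower mean at E13.5, with differences of -0.16 and -0.0732 for E13.5 minus E14.5. Deviations like those of the set thus occurred in genes with and without a fall between stages.

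The 8 study-table genes that met the same conditions give the set its named counterpart. They are *Lhx8* and *Lhx6*, transcription factors of the LIM homeobox family that are expressed in the jaw mesenchyme, *Pax9*, a paired box transcription factor required in the dental mesenchyme, *Pdgfra*, *Frzb*, a secreted antagonist of Wnt ligands, *Ptprz1*, a receptor phosphatase that binds pleiotrophin, *Epha7*, an ephrin receptor, and *Lama2*, a laminin chain of basement membranes. They too were chosen by their fall, and their differences are given without a test. Their falls ran from 1.02 in *Lama2* to 1.45 in *Lhx8* with a median of 1.15, where the 76 genes had 1.18. The same bound on the fall cut both sets, so near medians show no likeness between them. Their signals had a median of 8.38 at E13.5 and 7.24 at E14.5, where the set had 6.91 and 5.57. Part of a signal's height comes from the probes of the gene, so these signals do not rank the genes by RNA.

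*Lhx6* read 8.15, 8.17, 7.999, 8.14 and 8.14 on E13.5 replicates 1, 2, 4, 5 and 6, and 7.05, 6.95, 7.10, 7.14 and 6.93 on the E14.5 replicates, a fall of 1.09. It had the smallest SD of the 8 at E13.5, 0.07. *Lama2* read 7.03, 6.39, 6.31, 6.63 and 6.18 at E13.5 and 5.50, 5.50, 5.53, 5.56 and 5.33 at E14.5, a fall of 1.02, with its SD at E13.5 (0.33) well above that at E14.5 (0.09). *Epha7* read 9.45, 9.34, 9.39, 9.73 and 9.43 at E13.5 and 8.56, 8.31, 8.32, 8.36 and 8.21 at E14.5, a fall of 1.12. None of these genes overlapped between stages, as the conditions require.

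The named genes deviated to the same side as the set on most of the arrays that stood out, but not on E13.5 replicate 6. There 3 of the 8 were above their stage mean, with a median deviation of -0.03, against 45 of the 76 genes and 0.06. On E13.5 replicate 4, 0 of the 8 were above their stage mean, on replicate 2 there was 1, on replicate 1 there were 6 and on replicate 5 there were 8. On E14.5 replicate 6, the lowest array for the set, 0 of the 8 were above their stage mean, and on E14.5 replicate 1, the highest, 8 were. The coefficient with the median of the set was at least 0.5 in 7 of the 8, the exception being *Pax9* (r = 0.39). The spread was wider at E13.5 in 6 of the 8, with a median SD of 0.17 against 0.08 at E14.5.

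The falls of the set took place while markers of the tissues of the germ moved in opposite directions, and the part of these markers in the falls was not tested. Lists could be matched only through the study's tables, so by definition none of the 76 genes can be in them. Of 22 dental mesenchyme genes listed, 15 could be matched, and 11 of them were lower at E14.5 in limma at an adjusted p under 0.05 and 0 higher, with a median difference (E14.5 minus E13.5) of -0.59. The share of lower calls over all genes was 3.49%. These 11 include *Lhx6*, *Lhx8*, *Pax9* and *Pdgfra*, which were chosen above for their fall. Among the other 11 genes of the list 7 were lower, the largest changes being those of *Msx1* (-0.98), *Barx1* (-0.97) and *Inhba* (-0.80). *Dlx1*, a homeobox gene of the jaw mesenchyme, changed by -0.59 (limma adjusted p = 7.27e-05), *Tnc*, an extracellular matrix glycoprotein, by -0.52 (limma adjusted p = 0.0069), and *Gli3*, a transcription factor of the Hedgehog pathway, by -0.34 (limma adjusted p = 0.0381). *Gli2*, *Ptch1*, *Runx2* and *Dlx2* did not pass, with differences between -0.09 and 0.08. The median level of the list was 8.04 to 8.42 on the E13.5 arrays and 7.41 to 7.47 on the E14.5 arrays.

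Of 15 dental epithelium genes listed, 10 could be matched, and 7 of them were higher at E14.5 and 0 lower, with a median difference of 0.78, where 4.36% of all genes were called higher. *Cdh3*, the epithelial P-cadherin, was higher by 0.83 (limma adjusted p = 0.000806), and *Perp*, a protein of desmosomes, by 0.67 (limma adjusted p = 0.00214). The median of the list was 7.21 to 7.69 on the E13.5 arrays and 7.98 to 8.41 on the E14.5 arrays. The largest difference in the list was that of *Shh*, a Hedgehog ligand, which went from 6.68 ± 0.27 to 8.70 ± 0.23 (SD, n = 5). Next was *Sp6*, an epithelial transcription factor, which went from 5.34 ± 0.25 to 7.33 ± 0.26 (SD, n = 5).

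Outside the dental mesenchyme and epithelium lists, the directions differed. Of 5 matched genes of the stromal extracellular matrix, *Col1a1* and *Dcn*, a fibrillar collagen chain and a collagen-binding proteoglycan, were higher by 0.32 and 0.41 (limma adjusted p = 0.0246 and 0.036), and *Postn*, a matrix protein of the dental follicle and periodontal ligament, changed by -0.60 (limma adjusted p = 0.000745). Of 5 matched bone genes 3 were higher and 0 lower, with a median difference of 0.32, and *Col1a1* is in this list too. Of 4 matched guidance and neurotrophic genes, *Slit1* was higher by 0.68, *Slit3* and *Epha7* were lower, *Slit3* with a difference of -0.66 (limma adjusted p = 3.03e-05), and *Gdnf* did not pass (-0.19, limma adjusted p = 0.264).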

How the data were processed

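Gene signals were measured on Affymetrix Mouse Exon 1.0 arrays, 5 at E13.5 and 5 at E14.5. Signals were summarised by the authors in aroma.affymetrix, using a Brainarray custom CDF (version 23) that groups the probes of an Ensembl gene, and deposited as 1 value per gene and array, read here as log2 since values ran from 1.30 to 12.83. The log base, background correction and summary model are not given in the sources used here. Scanner files, detection calls and scan batches were not used here, and the number of arrays limits the precision. No pair of arrays held identical values. Whether pools of a stage came from separate litters is not stated in the labels, so p-values measure the spread between these samples.

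Membership, levels, deviations and spreads were computed in Python 3.11.15 with pandas 2.3.3 and numpy 2.4.6. Stages were compared over all 27528 genes with limma 3.58.1 in R 4.3.3 (lmFit, eBayes, two-sided, no covariate, Benjamini-Hochberg adjustment, threshold 0.05). The test and the membership conditions were also run on simulated data, with noise drawn independently for each gene and array. Such data lack the deviations that genes share on an array, so they cannot show how these affect the counts. The genes and lists were chosen with earlier results of these data known. Genes were named by rule: the 2 IDs with the largest falls, the study-table genes that met the same conditions, and the 5 study-table genes most like the set; list genes serve as examples. Of 399 study-table genes, 395 were on the arrays. Of 17 lists, 5 had at least 4 matched genes and are given (dental mesenchyme, dental epithelium, bone, stromal matrix, guidance signals), 2 had fewer and 10 none. Alternatives were quantile normalization, median centring, omission of dim genes, other bounds, array weights, a replicate block, moderated trend and omission of each array.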

Additional observations from a re-analysis of the deposited data

Results flagged for a closer look

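For 34 groups of 5 arrays, those of the values given by name or array by array, it was asked whether the highest or lowest array was separated from its neighbour by more than 0.71 of the whole range. This was so in 5 groups, and chance alone gives about 1 in 20. In *Lama2* the low value was E14.5 replicate 6 (5.33), while the remaining arrays lay between 5.50 and 5.56. In *Lhx6* it was E13.5 replicate 4 (7.999), below a range of 8.14 to 8.17. The high value in *Frzb* was E14.5 replicate 1 (8.13), above a range of 7.23 to 7.41, and in *Epha7* E13.5 replicate 5 (9.73), above 9.34 to 9.45. In *Dync2h1* the high value was again E14.5 replicate 1 (6.23), above 5.998 to 6.02. When arrays were left out singly, the fall was 0.89 to 1.11 in *Lama2*, 1.06 to 1.12 in *Lhx6*, 1.23 to 1.52 in *Frzb* and 1.05 to 1.17 in *Epha7*.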

How the results depend on the processing

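The set held 76 genes, and 48 with a bound of 1.1 on the fall. Without single arrays it held 64 to 86, the fewest without E13.5 replicate 1, and with quantile normalization 68, all of them among the 76. The count of genes lower at E14.5 in limma, 961 as reported, was 1972 with array weights and 457 at an adjusted p under 0.01, and 612 to 1350 without single arrays, the lowest counts being those without E13.5 replicate 5 (612) and E14.5 replicate 6 (619). The cause was not tested. The remaining alternatives for values that answer a comparison, 62 planned and 44 added after seeing the data, kept a count within 1.5 times or a value within the SD between arrays, as did 120 for named genes. The median fall of the 76 genes was 1.14 to 1.22 without single arrays. With the replicate number as a block, 920 genes were called lower, and 78 genes fell by at least 1 and were lower in every same-numbered pair. The labels do not say what a shared number means, and whether the numbers pair the samples was not tested. Same-numbered arrays deviated together with a correlation over 0.1 for 3 of 5 numbers. The correlations were 0.39, -0.08, 0.51, 0.03 and 0.28 for numbers 1, 2, 4, 5 and 6. Of 10 arrays, 5 correlated best with their own number.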
